A study of Mus musculus with 6 samples.

Results

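Parvalbumin, calbindin and other small calcium-binding proteins of neurons were followed through 6 arrays of mouse dorsal root ganglion neurons. The group held 10 genes of the 18193 on the arrays: Pvalb, Calb1, Calb2, Caln1, Pcp4, Pcp4l1, Hpcal1, Ncald, Hpca and Vsnl1. They were picked for what they encode, and 4 of them (Pvalb, Calb1, Caln1 and Pcp4l1) were chosen by their changes between the sample codes in these same arrays. For those 4, differences between codes are therefore given as a description with no test. All 10 were found by platform gene symbol, through 19 of 45037 probe sets, and each gene is led by its brightest probe set (highest mean log2).

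Each array measured total RNA of 1 pool of neurons from dorsal root ganglia, the clusters of sensory cell bodies beside the spinal cord. The L3-B pools held 50 control neurons, 1 pool of big diameter and 1 of medium to small diameter. For L3-S and L6-R, pools of 20 neurons were taken that had taken up DiI, a membrane dye that travels from the axon to the cell body, again with 1 pool per size class. DiI label and pool size thus went together and cannot be told apart in comparisons with L3-B. Codes and size classes are those of the sample titles and descriptions; what the codes stand for, where DiI was placed, the strain, the age and the number of animals are not stated in the sources used. No combination of code and size class was repeated, so each value below is 1 array, and the error of a difference is what an additive model of code and size leaves unexplained. P-values measure the spread between these pools, which may be technical. Values are the deposited linear signals, and differences are those of log2(signal + 32), which shrinks any fold that involves a signal near or below 32. Below, background means a signal of about 32, the constant added, and not a measured limit of detection.

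Calcium that enters a neuron is bound within moments by small proteins, most of them built from EF-hands, loops that hold a calcium ion. Buffers such as parvalbumin and the calbindins shape how high and how long calcium rises, whereas sensors such as calmodulin and the visinin-like proteins change shape and act on other proteins. In sensory ganglia parvalbumin is best known from muscle spindle and tendon organ afferents, and calbindin and calretinin from further subsets of neurons, so these genes are widely used as markers of neuron classes. In pools of cells, fewer neurons of a class and less RNA per neuron cannot be told apart.

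The arrays had been scaled alike, with signals below 32 in 55.3% to 59.5% of probe sets. The ratio of 3′ to 5′ signal of the Actb control, which can rise as RNA is degraded, ran from 3.73 to 13.9 and did not follow the codes (big first, L3-B 13.9 and 3.73, L3-S 5.42 and 12.0, L6-R 8.31 and 8.42). All 10 listed markers of sensory neurons were above 32 in every array, with a summed signal of 68458 to 69211 in L3-B, 64081 to 71885 in L3-S and 72418 to 85140.2 in L6-R. Of 8 skeletal muscle markers, 6 stayed below 32 in every array and none was above 32 in every array, with a summed signal of 106 to 159.8; muscle fibres also hold parvalbumin. Of 7 satellite glia and Schwann cell markers on the arrays, 6 were above 32 throughout; their summed signal was 11904 to 12757 in L3-B, 13788 to 17364 in L3-S and 15116 to 20846 in L6-R, and their part in the differences between codes was not tested. Of the 7, limma called 4 higher in L6-R than in L3-B (Mbp, Fabp7, Apoe and Sox10) and none lower, beside 7.51% of all genes tested called in either direction. In L3-S against L3-B it called 1 higher (Apoe, 2.14) and none lower, beside 1.02%. S100b differed by -0.29 and -0.18, and Glul by 0.10 and -0.35, in those comparisons without passing. Of the summed signal in L3-B, S100b gave 5546 to 6832.

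Pvalb (chromosome 15), the slow-acting calcium buffer of fast-firing neurons, was highest in L3-S and lowest in L6-R. Big first, the L3-B pair read 723 and 756, the L3-S pair 2084 and 3413, and the L6-R pair 69.1 and 31.9. The codes did not overlap, and the order L3-S, L3-B, L6-R was the same in both size classes. Such gaps, here and below, are common with 2 arrays per code. Of all genes tested, 38.5% had no overlap between L3-S and L3-B. The share was 49.8% between L6-R and L3-B and 52.6% between L6-R and L3-S. In log2(signal + 32), L3-S stood above L3-B by 1.49 in the big pair and by 2.13 in the other pair. L6-R minus L3-B was -2.90 and -3.62 in those pairs, and L6-R minus L3-S was -4.39 and -5.75. The medium to small L6-R signal of 31.9 is at the background, so these sizes depend on the added constant. The mean difference from L3-B was -3.26, or -3.95 with a constant of 1 and -2.29 with the larger one tried. The mean difference from L3-S was -5.07, or -5.80 and -3.98.

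Calb1 (chromosome 4) encodes calbindin D28k, a fast buffer. The L3-B pair read 2493 and 2334, the L3-S pair 1976 and 1562, and the L6-R pair 227 and 224 (big, then medium to small). L6-R stood far below both other codes, and L3-S lay just below L3-B without overlap. L6-R minus L3-B was -3.29 (big pair) and -3.21 (medium to small pair), a mean of -3.25 or 9.50-fold lower. The step from L3-B to L3-S was -0.33 and -0.57. The 2 brighter of its 3 other probe sets showed the same order of L6-R below the rest, with signals of 74.4 to 135 against 12.5 and 18.1, and of 44.1 to 61.5 against 0.345 and 8.33. The remaining one was below 32 in every array.

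Calb2 (chromosome 8) encodes calretinin, a relative of calbindin, and had not been chosen for a change between codes. Signals in the L3-B pair were 145 and 195, the L3-S pair 151 and 516, and the L6-R pair 15.1 and 1.97. Both L6-R arrays lay below background and below every other array, while L3-B and L3-S overlapped. Calb2 was lower in L6-R than in L3-B by a log2 difference of -2.33 ± 0.42 (SE, n = 2 arrays per code, limma adjusted p = 0.0122). Against L3-S the difference was -2.99 ± 0.42 (n = 2 arrays per code, limma adjusted p = 0.00826). Since the L6-R signals lie below 32, these sizes have no firm value: with a constant of 1 they were -4.61 and -5.34, and with the larger constant they were -1.12 (adjusted p = 0.0597) and -1.64 (adjusted p = 0.0265). L3-S minus L3-B was 0.66 ± 0.42 (limma adjusted p = 0.708) and rested on the medium to small L3-S array, without which it was -0.16 (limma adjusted p = 0.959); without the big L3-S array it was 1.48 (limma adjusted p = 0.0383). Here and below, a code left with 1 array has no spread of its own, and that array is assumed to vary like those of the other codes.

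**Figure D1:**
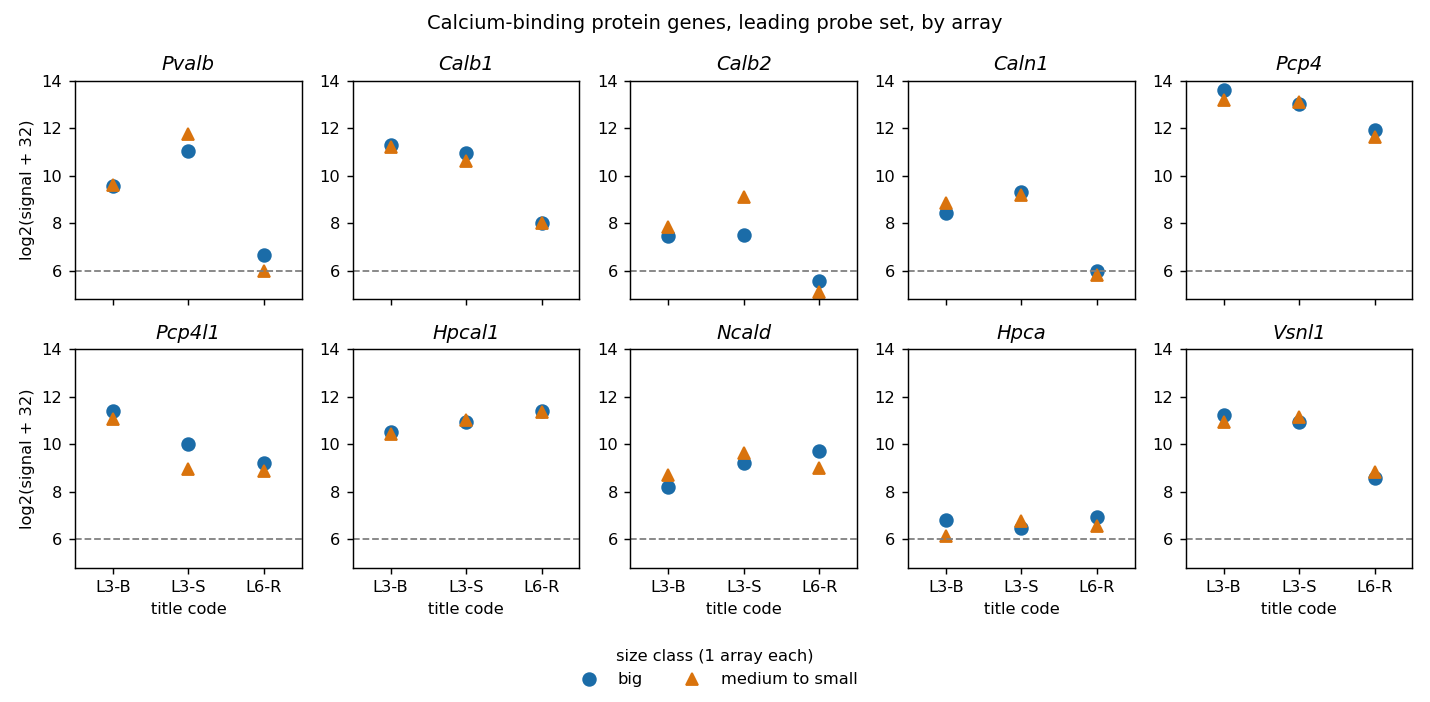
Level of each gene in the 6 arrays, as log2(signal + 32) of the leading probe set (vertical axis) by title code (horizontal axis). Each point is 1 array, circles big and triangles medium to small neurons, and the dashed line is a signal of 32. Pvalb, Calb1, Calb2, Caln1, Pcp4 and Vsnl1 are lowest in both L6-R arrays. Calb2, Caln1 and the medium to small Pvalb point lie at the dashed line or below it there.

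Among the sensors, Vsnl1 and Caln1 were low in L6-R as the buffers were. Vsnl1 (chromosome 12) encodes visinin-like protein 1, a sensor that moves to membranes when it binds calcium. The L3-B pair read 2360.2 and 1925, the L3-S pair 1956 and 2256, and the L6-R pair 352 and 426. L3-B and L3-S overlapped at a high level, and both L6-R arrays lay well below them while staying far above background. Vsnl1 was lower in L6-R than in L3-B by -2.37 ± 0.24 log2 (SE, n = 2 arrays per code, limma adjusted p = 0.000897), which is 5.16-fold. It was lower than in L3-S by -2.35 ± 0.24 log2 (n = 2 arrays per code, limma adjusted p = 0.00208). Between L3-S and L3-B it differed by -0.02 ± 0.24 (limma adjusted p = 0.993). Both L6-R calls held in all 16 alternative settings each, with differences from -2.63 to -2.01 against L3-B and from -2.49 to -2.02 against L3-S. The other Vsnl1 probe set, with signals of 119 to 183 in L3-B and L3-S and of 17.3 and 30.9 in L6-R, differed by -1.65 from L3-B and -1.69 from L3-S.

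Caln1 (chromosome 5) encodes calneuron 1, an EF-hand protein of the calmodulin superfamily found on Golgi membranes of neurons. In L3-B the pair read 319 and 432, the L3-S pair 614 and 552, and the L6-R pair 31.6 and 24.0. The codes did not overlap: L3-S was highest, L3-B lower, and both L6-R arrays were at or below background. L6-R minus L3-S was -3.34 (big pair) and -3.38 (medium to small pair), and L6-R minus L3-B was -2.46 and -3.05. These sizes have no firm value, since the L6-R signals are not above background: the mean difference from L3-S was -3.36, or -4.35 with a constant of 1, -2.19 with the larger constant and -2.21 with the mean of probe sets. That from L3-B was -2.76, or -3.70, -1.68 and -1.88. The step from L3-B to L3-S was 0.88 and 0.33, a small step that was 0.32 without the big L3-B array and 0.89 without the medium to small L3-B array. A further Caln1 probe set gave 198 to 312 in L3-B and L3-S against 23.0 and 7.66 in L6-R.

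Hpcal1, Ncald and Hpca, the remaining visinin-like proteins, were not low in L6-R. Hpcal1 (chromosome 12), close in sequence to hippocalcin, stood lowest in L3-B, then L3-S, and highest in L6-R. Signals in the L3-B pair were 1439.8 and 1335, the L3-S pair 1915 and 2047, and the L6-R pair 2666 and 2603, with no overlap between codes. L6-R exceeded L3-B by 0.91 ± 0.22 log2 (SE, n = 2 arrays per code, limma adjusted p = 0.0423), a 1.88-fold difference. The call is marginal: the difference stayed between 0.84 and 0.98 but its adjusted p was 0.0563 without the big L3-B array, 0.0988 without the medium to small L3-B array, 0.347 without the big L6-R array and 0.283 without the medium to small L6-R array. L3-S minus L3-B was 0.50 (limma adjusted p = 0.486) and L6-R minus L3-S was 0.41 (limma adjusted p = 0.423), neither past the threshold of 0.05.

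Ncald (chromosome 15) encodes neurocalcin delta, a sensor that binds clathrin and actin. In L3-B the pair read 261 and 386, the L3-S pair 565 and 764, and the L6-R pair 799 and 475. Both DiI codes lay above L3-B and overlapped each other. L3-S minus L3-B was 0.98 ± 0.32 log2 (SE, n = 2 arrays per code, limma adjusted p = 0.267) and L6-R minus L3-B was 0.89 ± 0.32 (n = 2 arrays per code, limma adjusted p = 0.150); neither passed. L6-R minus L3-B was 1.48 without the medium to small L6-R array, 0.30 without the big L6-R array and 0.24 with the mean of probe sets. Another Ncald probe set went differently, with 54.6 and 118 for L3-B, 134 and 90.1 for L3-S, and 39.6 and 111 for L6-R, a difference of -0.17 between L6-R and L3-B. Hpca (chromosome 4), the hippocalcin gene itself, had signals of 38.7 to 90.1 in all arrays. Its differences between codes were 0.12 to 0.27, none past the threshold (limma adjusted p of 0.628 to 0.949), and at this level the arrays resolve little.

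Pcp4 and Pcp4l1 encode small proteins with an IQ motif; Pcp4, also called PEP-19, speeds the exchange of calcium on calmodulin. Pcp4 (chromosome 16) read 12729 and 9281 in the L3-B pair, 8341 and 8743 in the L3-S pair, and 3910.4 and 3114 in the L6-R pair. It was among the brightest genes of the arrays, ranking 91 of 18193 by mean log2 value, and both L6-R arrays lay below all others. Pcp4 was lower in L6-R than in L3-B by -1.63 ± 0.24 log2 (SE, n = 2 arrays per code, limma adjusted p = 0.00463), a 3.10-fold difference. That call held in all 16 alternative settings. Against L3-S it was lower by -1.28 ± 0.24 (n = 2 arrays per code, limma adjusted p = 0.0260), a call lost without the medium to small L3-S array (-1.05, limma adjusted p = 0.120), without the big L6-R array (-1.35, limma adjusted p = 0.132) and without the medium to small L6-R array (-1.22, limma adjusted p = 0.205). Between L3-S and L3-B it differed by -0.35 (limma adjusted p = 0.745).

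Pcp4l1 (chromosome 1) followed another order. In L3-B the pair read 2699 and 2084, the L3-S pair 998 and 459, and the L6-R pair 554 and 435. Both DiI codes lay below L3-B, and they overlapped each other. L3-S lay from L3-B by -1.41 (big pair) and -2.11 (medium to small pair), and L6-R minus L3-B was -2.22 and -2.18. L6-R minus L3-S was -0.81 and -0.07. Pcp4 and Pcp4l1 thus differed in where L3-S stood, near L3-B for Pcp4 and near L6-R for Pcp4l1; the difference between the 2 genes was not tested.

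**Figure D2:**
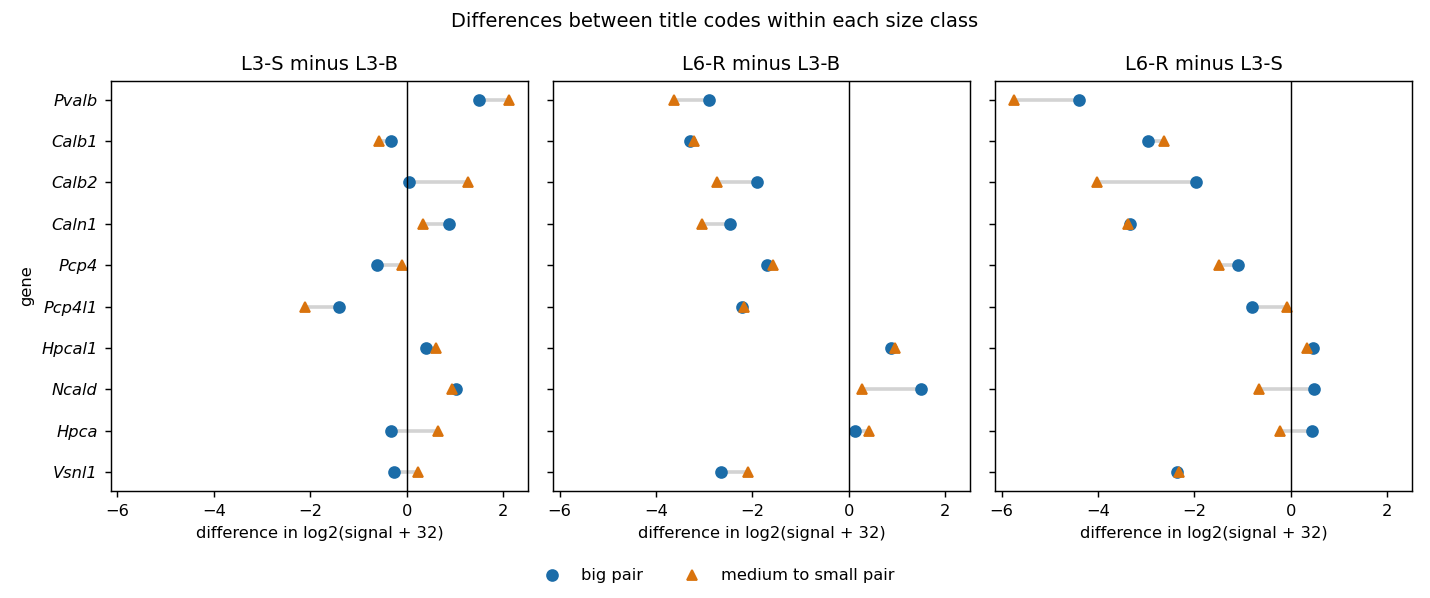
Differences in log2(signal + 32) between title codes (horizontal axis) for each gene (vertical axis), with circles for the big pair of arrays and triangles for the medium to small pair. In L6-R minus L3-B, 7 genes lie below 0 in both pairs and Hpcal1, Ncald and Hpca above it; L3-S minus L3-B ranges from -2.11 for Pcp4l1 to 2.13 for Pvalb, and comparisons that share a code share its arrays.

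Across the genes not chosen for a change between codes, 6 could be tested in each comparison. Against L3-B, 3 of the 6 were lower in L6-R (Calb2, Pcp4 and Vsnl1) and 1 was higher (Hpcal1), beside 7.51% of 9097 genes past the same threshold. Against L3-S, 3 of the 6 were lower (Calb2, Pcp4 and Vsnl1) and none was higher, beside 3.18% of all genes tested. Between L3-S and L3-B, limma called 0 of the 6, beside 1.02% of all genes; 2 of them, Hpcal1 and Ncald, were under an unadjusted 0.05, as were 924 of the 9097 genes. These comparisons share arrays, and the genes were picked with results of the arrays known, so the counts describe them and do not set them apart from other genes. Over these 6 genes the median log2 difference was -0.68 in L6-R against L3-B, -0.69 in L6-R against L3-S and 0.33 in L3-S against L3-B, beside medians of 0.02, -0.01 and 0.03 over all genes tested.

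Size class made no difference that passed. Of the 10 genes limma called 0 between big and medium to small arrays, beside 0% of 9097 genes, while 320 genes had an unadjusted p under 0.05. The smallest p among the 10 was that of Pcp4l1, higher in the big arrays by 0.59 ± 0.21 log2 (SE, n = 3 arrays per size class, unadjusted p = 0.0229, limma adjusted p = 0.998), with 0.37 in L3-B, 1.07 in L3-S and 0.33 in L6-R. Pvalb, a gene commonly found in large neurons, stood at -0.04 ± 0.26 (limma adjusted p = 0.998), with -0.06 in L3-B, -0.70 in L3-S and 0.66 in L6-R. Calb2 differed by -1.58 in L3-S, with the medium to small array the higher, by -0.36 in L3-B and by 0.47 in L6-R, the last between signals below background. The big and medium to small arrays overlapped for all 10 genes, and 5.03% of all genes tested had no overlap. Nefh, the heavy neurofilament of large myelinated neurons, likewise had overlapping signals of 8744 to 12609 in big and 7766 to 10408 in medium to small arrays (0.18, limma adjusted p = 0.998).

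**Figure D3:**
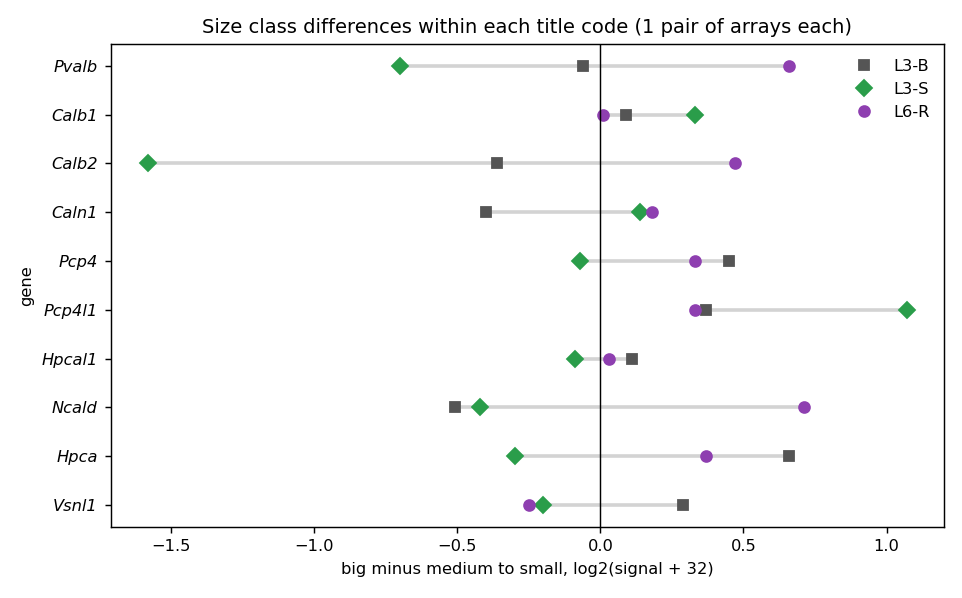
Big minus medium to small difference in log2(signal + 32) (horizontal axis) for each gene (vertical axis) within L3-B (squares), L3-S (diamonds) and L6-R (circles), each from 1 pair of arrays. For Pcp4l1 and Calb1 alone all 3 points lie on one side of 0, though Calb1 in L6-R stands at 0.01; Calb2 spreads the most, from -1.58 to 0.47.

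Where a gene had several probe sets, those bright enough to read mostly went the same way. Of the 19 probe sets, 8 were above 32 in every array and 3 were below 32 in every array. The 3 further probe sets of Calb1 and Caln1 whose signals passed 32 in 4 arrays differed by -1.69, -1.23 and -2.38 between L6-R and L3-B, beside -3.25 and -2.76 at the leading ones. The mean over probe sets brought the Calb1 difference from -3.25 to -1.54, since it takes in the dim ones.

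**Figure D4:**
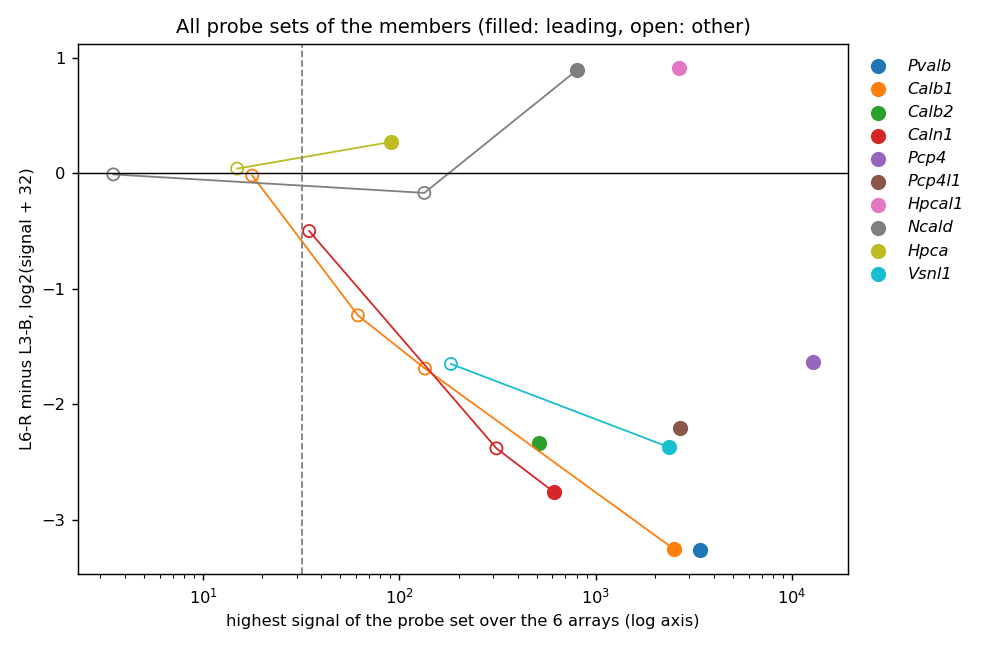
Difference between L6-R and L3-B in log2(signal + 32) (vertical axis) against the highest signal of each probe set (horizontal log axis), with filled points for leading and open points for other probe sets, lines joining probe sets of 1 gene, and a dashed line at a signal of 32. Probe sets of Calb1, Caln1 and Vsnl1 with more signal show larger falls, up to -3.25 for Calb1, and the brighter open Ncald point (-0.17) lies apart from its leading probe set (0.89).

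Markers of proprioceptors and other large-fibre neurons, the cells that parvalbumin labels in many ganglia, were compared with these genes. Their summed signal over 8 markers was 24978 to 28912 in L3-B, 21043 to 22367 in L3-S and 14904 to 17419 in L6-R. Nefh alone gave 9055 to 12609, 8744 to 10408 and 7766 to 9581 of these sums. Ntrk3, the receptor for neurotrophin-3, read 2243 and 2087 in the L3-B pair, 1155 and 791 in the L3-S pair, and 505 and 448 in the L6-R pair. It fell by 2.11 log2 in L6-R against L3-B (limma adjusted p = 0.00134), and L3-S minus L3-B was -1.15 (limma adjusted p = 0.0664). The order of Ntrk3 was therefore L3-B, L3-S, L6-R, whereas Pvalb was highest in L3-S. Vamp1 (-1.55, limma adjusted p = 0.00453) and Scn1a (-1.10, limma adjusted p = 0.0268) were also lower in L6-R than in L3-B. Nefh (-0.31), Cntnap2 (-0.59) and Kcna2 (-0.76) did not pass in that comparison. Runx3, a transcription factor of proprioceptors, was too dim to be tested. It read 19.5 and 26.2 for L3-B, 59.2 and 94.1 for L3-S, and 10.6 and 22.7 for L6-R. Whrn was also too dim, with 23.8 and 28.8 for L3-B, 54.5 and 38.3 for L3-S, and 34.7 and 14.1 for L6-R. Runx3 and Whrn were thus highest in L3-S, as Pvalb was, but with no signal above 94.1. Whether the codes hold different shares of such neurons was not tested.

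Other genes of calcium binding and handling were taken as 6 lists of 71 genes, of which 64 were found on the arrays and 44 were bright enough to test. In L6-R against L3-B, 4 rose and 3 fell (15.9% of the 44, beside 7.51% of all genes tested). In L6-R against L3-S, 1 rose and 4 fell (11.4%, beside 3.18%), and in L3-S against L3-B, 2 rose and 1 fell (6.82%, beside 1.02%). By size, limma called 0 of the 44. The lists were chosen with earlier results of these data known, so these counts do not set them apart from other genes. Without the filter on brightness, 0 list genes passed in L3-S against L3-B and 0 in L6-R against L3-S.

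Among calmodulin and CaBP proteins, Cabp7, the calneuron most like Caln1, read 1516 and 1465 in the L3-B pair, 515 and 559 in the L3-S pair, and 276 and 294 in the L6-R pair. It fell by 2.26 log2 in L6-R against L3-B (limma adjusted p = 0.000772) and by 1.42 in L3-S against L3-B (limma adjusted p = 0.0241), whereas Caln1 was not low in L3-S. The Cabp7 call in L3-S was lost in 5 of 16 alternative settings. Among them were the mean of probe sets (-0.96) and the fit without the medium to small L3-S array (-1.47). Calml4, a calmodulin-like protein, rose by 1.73 in L6-R against L3-B (limma adjusted p = 0.0249), or by 1.00 without the medium to small L3-B array (limma adjusted p = 0.0600) and by 1.46 without the medium to small L6-R array (limma adjusted p = 0.101). The list's 3 tested genes had a median of -0.35 in that comparison.

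Among 5 tested further neuronal calcium sensors, the channel-interacting proteins of A-type potassium channels accounted for each call. Kcnip2 read 79.0 and 68.3 in the L3-B pair, 219 and 422 in the L3-S pair, and 89.0 and 101 in the L6-R pair, and so was high in L3-S alone. It rose by 1.68 in L3-S against L3-B (limma adjusted p = 0.0336) and fell by 1.41 in L6-R against L3-S (limma adjusted p = 0.0351). Kcnip1 rose by 1.20 (limma adjusted p = 0.0147) and Kcnip3 fell by 1.14 (limma adjusted p = 0.0259) in L6-R against L3-B. All 4 of these calls were lost without some single array: that of Kcnip2 against L3-B without the medium to small L3-B array (1.36) or the medium to small L3-S array (1.25), and that against L3-S without the medium to small L3-S array (-0.98) or either L6-R array (-1.52 and -1.30). The Kcnip1 call was lost without either L6-R array (1.15 and 1.25) and also with the mean of probe sets (0.62). That of Kcnip3 was lost without either L6-R array (-1.06 and -1.21) or the medium to small L3-B array (-0.95).

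Among 6 tested EF-hand buffers and sensors of other families, Tesc encodes tescalcin, a partner of sodium-proton exchangers. The L3-B pair read 5393 and 3349, the L3-S pair 3532 and 2441, and the L6-R pair 1125 and 970.0. It fell by 1.99 log2 in L6-R against L3-B (limma adjusted p = 0.00172), a call kept in all 16 alternative settings, and by 1.46 against L3-S (limma adjusted p = 0.0145; 0.163 without the big L6-R array). Necab2, a neuronal EF-hand protein, read 37.9 and 49.2 in the L3-B pair, 145 and 113 in the L3-S pair, and 31.0 and 44.7 in the L6-R pair. L6-R was thus near L3-B, and L3-S minus L3-B was 1.09 (limma adjusted p = 0.0896). Necab2 fell by 1.20 in L6-R against L3-S (limma adjusted p = 0.0371). Its call was lost without the big L3-S array (-0.94) or either L6-R array (-1.05 and -1.36). Of the calcium pumps and exchangers, 5 were tested and 1 passed: Atp2b3, a pump of the plasma membrane, fell by 1.18 in L6-R against L3-S (limma adjusted p = 0.0487), and not without the medium to small L3-S array (-0.94) or either L6-R array (-1.07 and -1.28).

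Among 18 tested calmodulin-dependent enzymes and regulators, Marcks, a membrane-bound protein that holds calmodulin, rose by 2.14 in L6-R against L3-B (limma adjusted p = 0.00153), with 95.2 and 141 for L3-B, 239.8 and 487 for L3-S, and 552 and 705 for L6-R. In L3-S against L3-B it rose by 1.34 (limma adjusted p = 0.0478), a call lost in 9 of 16 alternative settings, among them without the medium to small L3-B array (1.25) and without the medium to small L3-S array (1.07). The kinase Camk1 rose by 1.37 in L6-R against L3-B (limma adjusted p = 0.00746; 0.0780 without the big L6-R array) and by 1.06 against L3-S (limma adjusted p = 0.0406), the latter not without any 1 of the L3-S or L6-R arrays (1.01 to 1.12). Gap43, a calmodulin-binding growth cone protein, differed by 1.01 in L6-R against L3-S without passing (limma adjusted p = 0.0923). None of 7 tested calcium-binding proteins of the secretory pathway passed in any comparison, and their differences ran from -0.26 to 0.64.

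**Figure D5:**
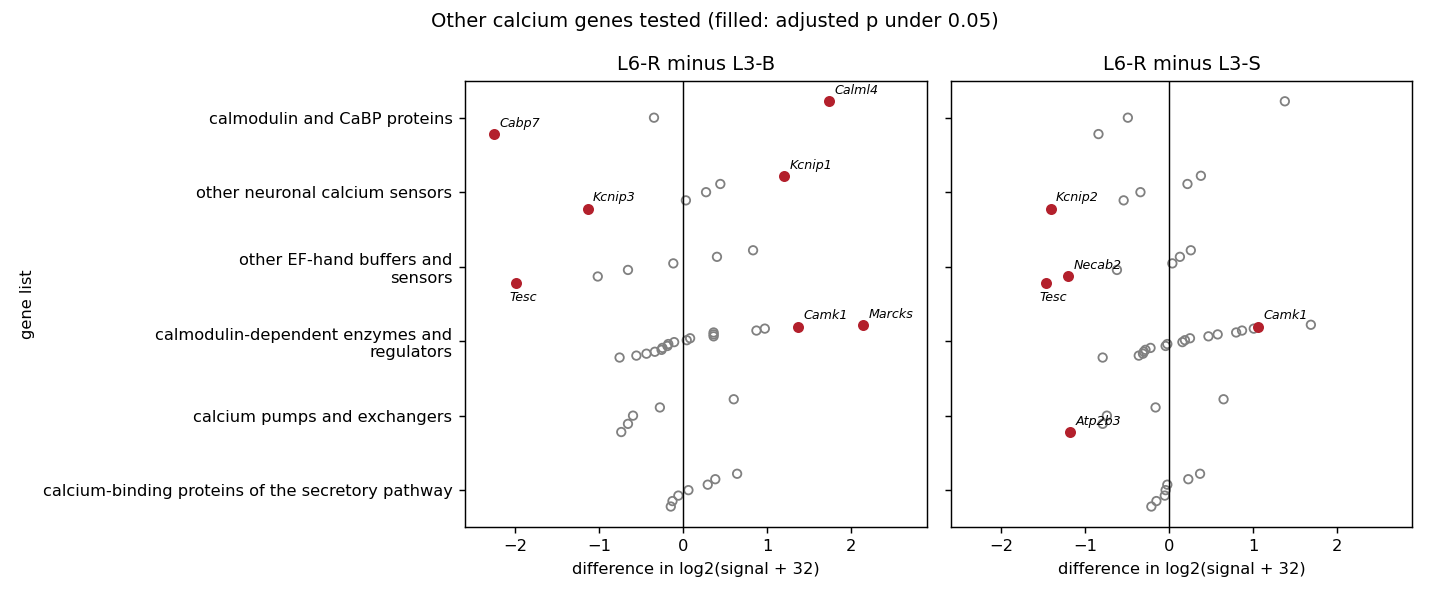
Difference in log2(signal + 32) (horizontal axis) of the 44 tested genes of 6 calcium lists (vertical axis), in L6-R minus L3-B (left) and L6-R minus L3-S (right). Filled points are genes past an adjusted p of 0.05; the largest fall on the left is that of Cabp7 (-2.26) and the largest rise that of Marcks (2.14).

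Genes whose pattern over the 6 arrays was most like that of a member were ranked by Pearson's r of log2(signal + 32) among 2445 or 2446 tested genes that spanned at least 1 log2. With so many genes and 6 arrays in 3 codes, high values arise readily and r says nothing of the size of a change. Closest to Pvalb were Sulf2, a sulfatase that edits heparan sulfate (r = 0.998), Ppp1r9a, the actin-binding neurabin (0.995), and Esrrg, an orphan nuclear receptor (0.993). Esrrg read 311 and 385 in the L3-B pair, 590.4 and 830.4 in the L3-S pair, and 73.6 and 75.8 in the L6-R pair. Closest to Calb1 were Opcml (0.995), Faim2 and Extl2 (0.993 each), to Caln1 Bckdhb (0.994), Vstm2b (0.993) and Chgb, a granin of secretory granules (0.992), and to Vsnl1 Myh10, a non-muscle myosin, Lin7b and Chst15 (0.994 each). Closest to Pcp4 were Fam126b (0.997), Pip4k2a (0.995) and Asb13 (0.993). Closest to Hpcal1, which rose from L3-B to L6-R, were the beta-tubulin Tubb2b (0.998), Ndrg2 (0.996) and Plcxd3 (0.995).

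The stretches just before the start sites of Pvalb, Caln1 and Vsnl1, which were low in both L6-R arrays, and of Hpcal1, which was high there, are printed to set genes of opposite course side by side. They are the 250 bases before the first start site listed by RefSeq (GRCm38.p6), read 5′ to 3′ on the gene's strand. Pvalb lies at chr15:78206401-78206650 (minus strand), Caln1 at chr5:130369208-130369457 (plus strand), Vsnl1 at chr12:11436579-11436828 (minus strand) and Hpcal1 at chr12:17690559-17690808 (plus strand). Capitals mark matches, on either strand, to the TATA box TATAAA, the CCAAT box CCAAT or the GC box GGGCGG, and no matches overlapped.
Pvalb: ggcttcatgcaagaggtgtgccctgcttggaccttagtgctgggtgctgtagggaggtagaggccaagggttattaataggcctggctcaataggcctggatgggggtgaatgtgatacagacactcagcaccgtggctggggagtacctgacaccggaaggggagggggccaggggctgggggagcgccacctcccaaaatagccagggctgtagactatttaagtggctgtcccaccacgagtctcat
Caln1: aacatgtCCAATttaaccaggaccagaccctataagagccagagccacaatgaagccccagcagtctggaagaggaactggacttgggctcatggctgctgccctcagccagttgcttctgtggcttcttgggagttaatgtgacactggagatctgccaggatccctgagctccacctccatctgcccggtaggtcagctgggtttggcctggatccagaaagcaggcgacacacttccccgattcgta
Vsnl1: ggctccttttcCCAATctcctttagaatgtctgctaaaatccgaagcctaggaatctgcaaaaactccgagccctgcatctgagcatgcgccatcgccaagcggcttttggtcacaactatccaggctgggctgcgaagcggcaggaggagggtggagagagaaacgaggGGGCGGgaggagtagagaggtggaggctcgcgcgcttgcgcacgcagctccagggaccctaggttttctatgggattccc
Hpcal1: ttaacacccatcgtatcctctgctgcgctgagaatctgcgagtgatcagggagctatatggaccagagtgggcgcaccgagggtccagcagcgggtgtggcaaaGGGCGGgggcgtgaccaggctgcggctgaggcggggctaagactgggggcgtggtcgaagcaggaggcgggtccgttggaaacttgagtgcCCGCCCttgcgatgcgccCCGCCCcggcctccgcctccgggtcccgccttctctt
The Pvalb window held none of the 3 motifs, Caln1 held 1 CCAAT box, Vsnl1 held 1 CCAAT box and 1 GC box, and Hpcal1 held 3 GC boxes. The share of G and C was 58.4% for Pvalb, 55.2% for Caln1, 58.0% for Vsnl1 and 66.8% for Hpcal1. Over all 32851 windows of this length, 12.4% held a TATA box, 33.8% a CCAAT box and 32.7% a GC box. Windows were found for 7 of the 10 genes, the others being Calb1, Calb2 and Ncald. The matches describe these letters and no binding was measured.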

How the data were processed

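Each sample was 1 Affymetrix array. The authors deposited a linear signal intensity per probe set, and every array had a mean of 150.0 after trimming 2% at each end, so the values were taken as scaled and not normalized again. The summary method is not given in the sources used here, and no detection calls were used. Of 45037 probe sets, 34945 carried 1 gene symbol, 932 several and 9160 none; 64 control probe sets were left out. Each gene was represented by its probe set with the highest mean log2(signal + 32), and the upper 50% of 18193 genes (9097, minimum mean 6.41) were tested. R 4.3.3 with limma 3.58.1 fitted code plus size class (which pairs the arrays of each size) to all 6 arrays (lmFit, eBayes, 2 residual and 6.46 prior degrees of freedom, two-sided). Benjamini-Hochberg adjustment covered all genes tested, with a threshold of 0.05. The fit was also run on simulated data built on the same additive model. Such a run checks the calculation and cannot show whether the model holds for these pools. The number of arrays limits the precision.

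The members and lists were chosen with earlier results of these data known. Named were all members and their probe sets; from each calcium list, per comparison, up to 2 tested genes with the smallest unadjusted p; and the 3 tested genes with the highest correlation with each member. Not every one of these is printed. The large-fibre and glial markers named come from the fixed marker lists and were singled out after their values were seen. Markers of connective tissue and vessels had a summed signal of 210.3 to 342 in L3-B, 1250.3 to 1318 in L3-S and 856 to 1500.2 in L6-R (7 genes). Of these, only Rgs5 and Dcn were bright enough to test. Against L3-B, limma called Rgs5 higher in L3-S (3.32, adjusted p = 0.00938) and in L6-R (1.73, adjusted p = 0.0314). Dcn was called higher in L6-R (2.13, limma adjusted p = 0.00620) and did not pass in L3-S (0.83, limma adjusted p = 0.408). The part of such cells in the differences between codes was not tested. Markers of blood and immune cells had a summed signal of 31.6 to 69.3 (6 genes) and those of spinal cord neurons one of 38.5 to 112 (6 genes). Alternatives were quantile normalization, a smaller constant of 1 and a larger one, no filter, the upper 25% of genes, the mean of probe sets, an eBayes trend, array weights, the Actb ratio as a covariate, fits to the 4 arrays of the codes compared, and leaving out each array. For a comparison of codes, leaving out either array of the third code repeats the fit to the 4 arrays compared. Counts of settings therefore include repeats of 1 fit.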

Additional observations from a re-analysis of the deposited data

Results flagged for a closer look

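The size class difference (big minus medium to small, log2) of Pvalb ran in opposite directions in 2 codes: it was 0.66 in L6-R, between signals of 69.1 and 31.9 near the background, and -0.70 in L3-S, between 2084 and 3413. Ncald did so as well, with 0.71 in L6-R and -0.51 in L3-B. Each value comes from 1 pair of arrays, and the difference between codes was not tested, since an interaction leaves no residual. The minimum of 0.5 log2 in both directions was chosen after the data were seen.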

How the results depend on the processing

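The fit to all 6 arrays has 2 residual degrees of freedom, and those with 1 array left out, with the 4 arrays of the codes compared or with the Actb ratio have 1. Counts of calls moved widely between settings, and the cause of each shift was not tested. Genes called between L3-S and L3-B (93) were 46 with a constant of 1, 14 without the filter, 21 in the upper 25% of genes, 41 with the mean of probe sets, 48 when arrays were weighted, 512 with the Actb ratio as covariate, 171 in the 4 arrays compared, and 61 to 202 with 1 array left out. For L6-R against L3-B (683) they were 299 in the upper 25%, 1590 with the Actb ratio, and 356 to 995 with 1 array left out. For L6-R against L3-S (289) they were 137 with a constant of 1, 107 without the filter, 115 in the upper 25%, 633 with array weights, 994 with the Actb ratio, 653 in the 4 arrays, and 140 to 653 with 1 array left out. By size class (0) there were 2 with the Actb ratio (Iigp1 and Chodl) and 0 to 1 with 1 array left out (Cap1 or Rsad2), genes named after their values were seen.

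Of the 6 tested calcium-binding genes, L3-S against L3-B (0) called 1 with the Actb ratio (Ncald, 0.99, limma adjusted p = 0.0338) and 0 to 1 with 1 array left out. L6-R against L3-B (4) called 2 without the filter and 3 to 4 with 1 array left out; L6-R against L3-S (3) called 1 without the filter and 2 to 3 with 1 array left out. Without the filter the L6-R calls of Hpcal1 and Calb2 against L3-B, and of Calb2 and Pcp4 against L3-S, were lost (limma adjusted p of 0.0776, 0.0570, 0.0540 and 0.0737). With a constant of 1 those of Hpcal1 against L3-B (0.0805) and of Pcp4 against L3-S (0.0762) were lost. Ncald in L6-R against L3-B passed with the Actb ratio (0.91, limma adjusted p = 0.0244).

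List genes called in L3-S against L3-B (3) were 0 with a constant of 1, without the filter, with the mean of probe sets and with array weights, 1 with the larger constant and in the upper 25%, 9 with the Actb ratio, and 1 to 4 with 1 array left out. In L6-R against L3-B (7) they were 15 with the Actb ratio and 4 to 10 with 1 array left out. In L6-R against L3-S (5) they were 2 with a constant of 1, 0 without the filter, 1 in the upper 25% and with the mean of probe sets, 10 with array weights and in the 4 arrays, 14 with the Actb ratio, and 0 to 10 with 1 array left out.

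Small differences that had not passed changed sign. Vsnl1 in L3-S against L3-B was 0.05 with quantile normalization, 0.01 with the mean of probe sets and -0.28 to 0.24 with 1 array left out; Calb2 was -0.16 to 1.48. Hpca ranged from -0.25 to 0.56 there, from -0.04 to 0.59 in L6-R against L3-B and from -0.29 to 0.52 in L6-R against L3-S, and Ncald from -0.68 to 0.50 in the last. By size class, Pvalb was 0.10 with a constant of 1, 0.22 with array weights and -0.38 to 0.30 with 1 array left out. Calb2 was 0.08 with a constant of 1 and -0.97 to 0.05 with 1 array left out. Caln1 was 0.02 with quantile normalization, 0.03 with a constant of 1, 0.17 with the mean of probe sets, 0.08 with array weights, 0.02 with the Actb ratio and -0.13 to 0.16 with 1 array left out. Hpcal1 was -0.02 with quantile normalization, 0.00 with the Actb ratio and -0.03 to 0.07 with 1 array left out, Ncald 0.25 with array weights and -0.46 to 0.15, and Vsnl1 -0.23 to 0.04.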
